A study of Homo sapiens with 12 samples.

Results

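The signalling pathways of transforming growth factor beta (TGF-beta) and the bone morphogenetic proteins (BMPs) were followed through 41 of the 60671 genes counted in these libraries. The members were a list of 41 gene symbols, each of which matched 1 Ensembl identifier, and 39 of them were among the 13236 genes with enough reads to be tested. CHRD and BMP6 were not tested. The cells were BJ-5ta, a line of human fibroblasts immortalised with hTERT, and the RNA sequencing held 12 libraries in 4 groups of 3. Wild-type cells were grown in 10% serum (WT_10, libraries 1 to 3) or kept for 10 days in 0.1% serum, in which they become quiescent (WT_01, libraries 7 to 9). Cells lacking LEO1, a subunit of the PAF1 complex that accompanies RNA polymerase II, were grown under the same 2 conditions (Leo1_10, libraries 4 to 6, and Leo1_01, libraries 10 to 12). These ΔLEO1 cells came from 1 clone made with CRISPR/Cas9, so that an effect of the deletion and a property of the clone cannot be told apart. It is not stated whether libraries of a group came from separate cultures, and all p-values below measure only the spread between these libraries.

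In this pathway, secreted ligands of the TGF-beta, activin and BMP families bind pairs of receptor kinases, which phosphorylate SMAD proteins. SMAD2 and SMAD3 carry the signal of TGF-beta and activin, while SMAD1, SMAD5 and SMAD9 carry that of BMPs. Both kinds join SMAD4 and enter the nucleus to regulate target genes. Secreted antagonists such as follistatin, gremlin and noggin hold ligands away from their receptors, and SMAD6, SMAD7, SKI, SKIL and PMEPA1 damp the signal inside the cell. In fibroblasts TGF-beta is known for driving matrix production and the change to a contractile myofibroblast, and BMPs for inducing the ID genes. The transcripts measured here are those of the pathway's parts and targets, and no phosphorylated SMAD was measured.

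Promoter sequence is shown for the members that stood out most in the results: TGFB2 and INHBB, with the largest differences between the genotypes, and ID1 and ID3, the BMP target genes with the most reads. The RefSeq promoter table (GRCh38.p14, 250 bases before the start of transcription to 50 after it) held 73 windows for 37 of the members and none for BMP2, NOG, ACVRL1 and SKI. Capitals mark the letters GGCGCC, a GC-rich element bound by SMADs, and CAGAC or its reverse complement GTCTG, the SMAD box. Both strands were searched, and the palindrome GTCTAGAC, which SMADs also bind and which holds neither CAGAC nor GTCTG, was searched as well.
TGFB2, chr1:218345086-218345385, plus strand: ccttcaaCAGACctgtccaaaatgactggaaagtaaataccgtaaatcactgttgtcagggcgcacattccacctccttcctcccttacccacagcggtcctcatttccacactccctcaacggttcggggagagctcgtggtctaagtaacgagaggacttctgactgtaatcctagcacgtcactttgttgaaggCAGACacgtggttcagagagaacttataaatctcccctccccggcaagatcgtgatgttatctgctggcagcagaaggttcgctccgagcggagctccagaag
INHBB, chr2:120345886-120346185, plus strand: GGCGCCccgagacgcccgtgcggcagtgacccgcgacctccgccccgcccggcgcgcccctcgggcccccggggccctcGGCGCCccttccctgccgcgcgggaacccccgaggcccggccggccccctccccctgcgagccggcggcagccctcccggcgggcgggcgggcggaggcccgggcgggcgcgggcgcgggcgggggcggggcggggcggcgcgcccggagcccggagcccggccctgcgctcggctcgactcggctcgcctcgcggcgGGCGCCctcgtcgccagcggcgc
ID1, chr20:31605039-31605338, plus strand: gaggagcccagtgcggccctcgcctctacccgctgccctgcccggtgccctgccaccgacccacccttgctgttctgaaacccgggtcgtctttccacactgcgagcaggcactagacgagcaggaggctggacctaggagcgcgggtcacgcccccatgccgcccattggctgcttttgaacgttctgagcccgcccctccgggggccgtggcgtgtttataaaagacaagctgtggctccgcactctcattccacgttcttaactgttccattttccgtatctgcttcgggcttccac
ID3, chr1:23559452-23559751, minus strand: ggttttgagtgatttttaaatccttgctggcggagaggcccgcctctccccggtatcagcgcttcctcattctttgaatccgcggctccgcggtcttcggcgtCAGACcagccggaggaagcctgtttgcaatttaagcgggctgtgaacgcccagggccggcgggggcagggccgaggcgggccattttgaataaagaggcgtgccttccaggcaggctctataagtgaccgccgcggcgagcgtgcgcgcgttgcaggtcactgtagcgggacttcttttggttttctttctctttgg
The TGFB2 window held 2 SMAD boxes, the ID3 window 1 and the INHBB window 3 copies of GGCGCC, while these letters were not in the ID1 window. The RefSeq start of TGFB2 lies upstream of the start of the gene in GENCODE. Over all 35114 windows, 19.2% held GGCGCC, against 19 of the 73 windows of members. CAGAC was in 45.3% of all windows and in 37 of the 73, and GTCTAGAC in 0.202% and in 1, that of SMAD6. These motifs are short and common, windows of 1 gene overlap, and a match is a description of the letters only. G and C made up 88.7% of the INHBB window, against a median of 58.7% over all windows.

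The libraries held 26240632 to 45315560 counts on genes, and the synthetic ERCC spike-in transcripts took 0.625% to 3.24% of the counts of a library. The table was read on 2 scales. On the ERCC scale a gene's count is given per 1000000 effective ERCC counts, so that a change in the amount of RNA per spike-in shows. On the relative scale libraries were normalised with TMM on the genes themselves, so that a gene is set against the others. The median log2 fold change of all tested genes on the ERCC scale was −0.97 and −1.05 for low serum in wild-type and ΔLEO1 cells and 0.35 and 0.27 for ΔLEO1 against wild-type in 10% and 0.1% serum, and every change of a member is to be read beside this shift. Whether the spike-in was added per cell number is not given in the sources used here, and fewer cells and less RNA per cell cannot be told apart in such bulk RNA. LEO1 itself had 682 to 1001 counts in the wild-type libraries and 23 to 55 in the ΔLEO1 libraries. All 10 fibroblast markers checked were above 1 CPM (counts per 1000000 counts on genes) in 3 or more libraries, against 1 of 8 endothelial, 0 of 6 epithelial and 2 of 6 blood cell markers. The summed blood markers were at 0.995 to 1.78 CPM in the wild-type libraries and at 2.72 to 8.27 CPM in the ΔLEO1 libraries, and the endothelial ones at 2.27 to 6.12 CPM and 0.698 to 1.22 CPM, so that both sums moved with the genotype, and their part in the results was not tested. The highest-numbered library of each group (3, 6, 9 and 12) stood apart from the other two in several members.

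Low serum lowered more members than it raised on the ERCC scale. In wild-type cells 2 members were called higher (background 0.944% of all tested genes) and 11 lower (background 36.1%), and in ΔLEO1 cells 1 was higher (background 0.975%) and 13 lower (background 47.2%), by the likelihood ratio test of edgeR at an adjusted p under 0.05. The shares of members called lower were thus below those of all genes, and the 4 pairwise comparisons share groups, so their counts are not independent. The members' median log2 fold change was −0.68 in wild-type and −0.70 in ΔLEO1 cells. On the relative scale the counts were 17 higher (background 16%) and 6 lower (background 16.6%) in wild-type cells, and 19 higher (background 16.5%) and 6 lower (background 12.9%) in ΔLEO1 cells. Between the genotypes 5 members were higher and 4 lower in ΔLEO1 cells in 10% serum (backgrounds 4.2% and 4.64%), and 3 higher and 6 lower in 0.1% serum (backgrounds 3.85% and 3.59%). Relative to the other genes these counts were 8 and 14 in 10% serum (backgrounds 17.7% and 21.8%) and 8 and 10 in 0.1% serum (backgrounds 15.4% and 17.6%). In the 4 comparisons, in the same order, the ERCC-scaled counts of 2, 1, 12 and 4 members lay above those of the other group without overlap (backgrounds 1.16%, 0.846%, 23.7% and 4.64%) and those of 13, 14, 7 and 7 members below it (backgrounds 53.4%, 50.9%, 6.94% and 4.83%). The spread between libraries limits these counts: in simulated counts with the same libraries and 13236 genes the test for low serum in wild-type cells recovered 7 of 70 genes changed 2-fold, 60 of 70 changed 4-fold and 60 of 60 changed 16-fold. The changed genes were drawn from well-counted genes only, so recovery of members with few reads was not simulated.

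**Figure D1:**
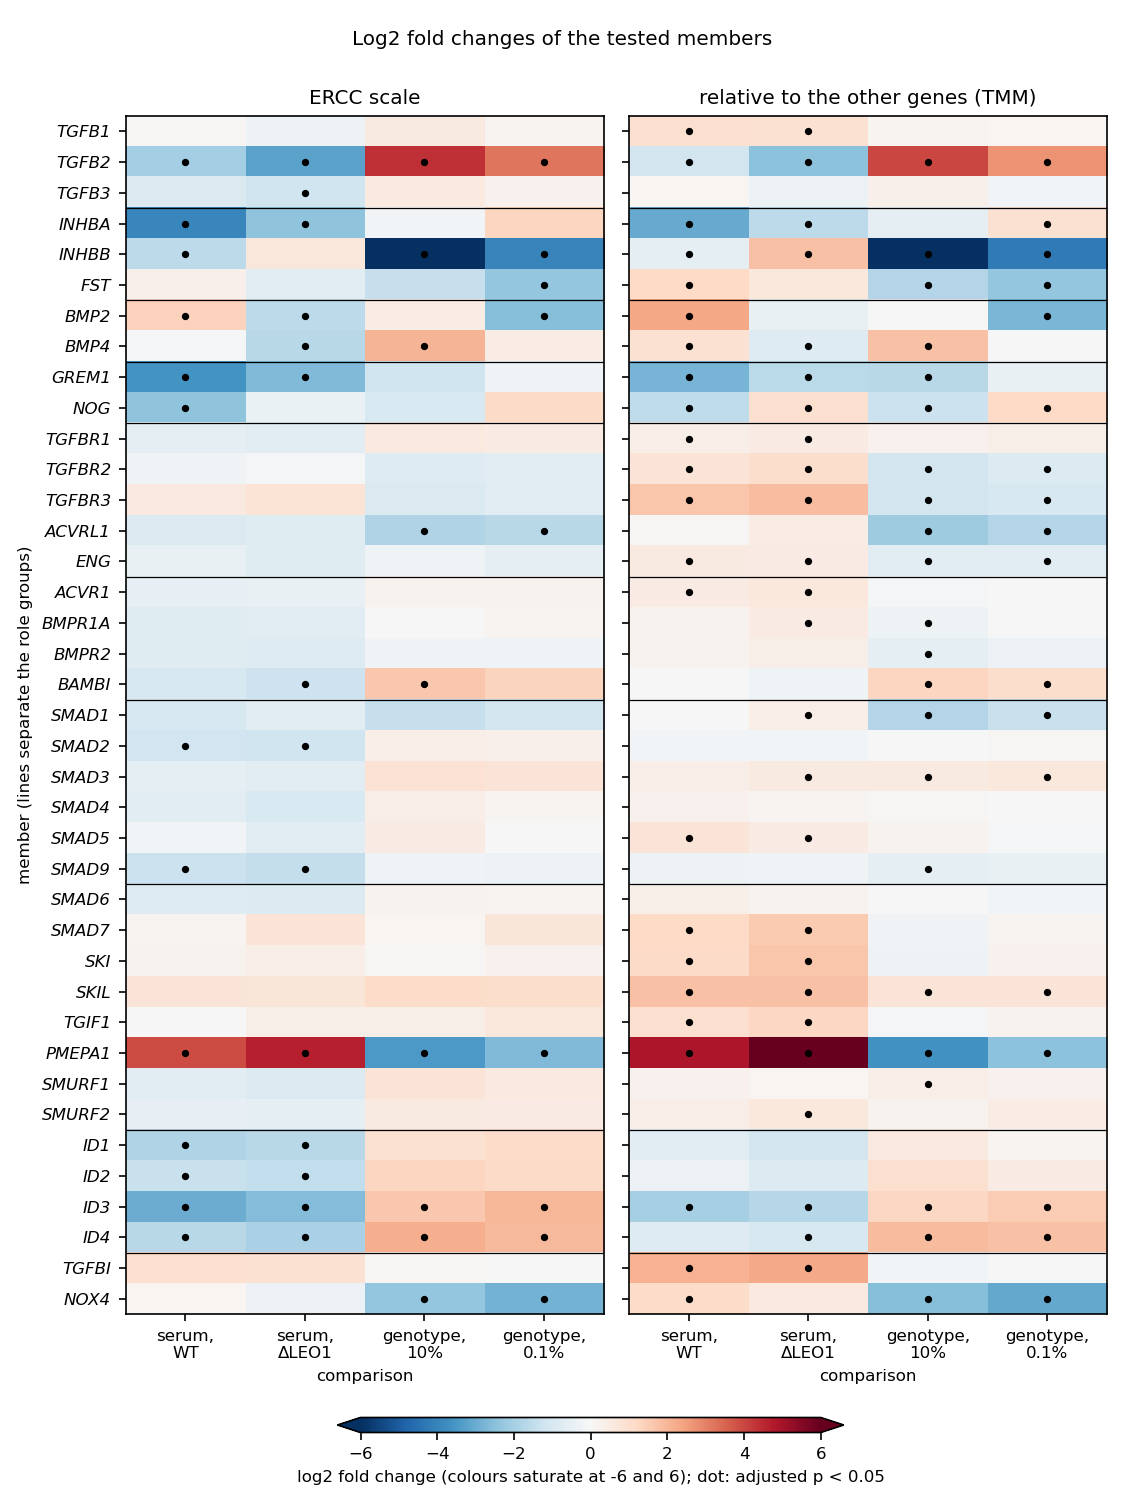
Log2 fold changes of the 39 tested members (rows, in role groups) in 4 comparisons (columns), on the ERCC scale (left) and relative to the other genes (right). Red is higher and blue lower in 0.1% serum or in ΔLEO1 cells, and a dot marks an edgeR adjusted p under 0.05. PMEPA1, at 3.90 and 4.68 on the ERCC scale, is the deepest red under low serum, and INHBB, at −6.25, the deepest blue between the genotypes in 10% serum.

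Among the TGF-beta ligands, TGFB2 (ENSG00000092969, chr1:218346235-218444619, plus strand, in GENCODE 29 on GRCh38) differed most between the genotypes. Its ERCC-scaled counts were 581, 544 and 551 in wild-type cells in 10% serum and 122, 152 and 132 in 0.1% serum. In ΔLEO1 cells they were 11075, 8324 and 15285 in 10% serum and 706, 390.4 and 2673 in 0.1% serum. The lowest ΔLEO1 library in 10% serum thus stood far above the highest wild-type one, the genotypes did not overlap in 0.1% serum either, and library 12 was the highest of its group. The log2 fold change of ΔLEO1 over wild-type was 4.37 ± 0.46 (SE; edgeR adjusted p = 1.0e-14) in 10% serum and 3.21 ± 0.46 (edgeR adjusted p = 1.0e-08) in 0.1% serum, and relative to the other genes 4.01 and 2.68. TGFB2 fell in low serum, with a log2 fold change of −2.04 ± 0.47 (edgeR adjusted p = 4.9e-04) in wild-type and −3.21 ± 0.46 (edgeR adjusted p = 2.1e-08) in ΔLEO1 cells. Without libraries 3, 6, 9 and 12 the difference in 0.1% serum was 2.0, and leaving out single libraries gave 2.02 to 3.64. Without library 12 alone it was 2.02 and the fall in ΔLEO1 cells −4.40. Of the exonic bases of TGFB2 26.6% are shared with TGFB2-OT1 on the same strand, and reads there cannot be given to one of them.

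TGFB1, the most abundant of the 3 isoforms, did not pass the test on the ERCC scale in any of the 4 comparisons, with log2 fold changes of 0.06 and −0.31 for low serum and 0.52 and 0.15 for the genotype. Relative to the other genes it rose in low serum by 0.96 ± 0.25 (edgeR adjusted p = 7.9e-04) in wild-type and 0.92 ± 0.25 (edgeR adjusted p = 0.0017) in ΔLEO1 cells. TGFB3 was called lower on the ERCC scale in ΔLEO1 cells in low serum, at −1.17 ± 0.51 (edgeR adjusted p = 0.048), and only in 4 of the 12 fits that left out 1 library, with −0.29 without library 6. The quasi-likelihood test (edgeR adjusted p = 0.063) and DESeq2 (adjusted p = 0.066) did not call it, and without libraries 3, 6, 9 and 12 it was called higher relative to the other genes (0.67, edgeR adjusted p = 0.0017). Per kilobase of the principal transcript, TGFB2 made up 1.83% ± 0.447 (SD, n = 3) of the summed CPM of the 3 isoforms in WT_10 and 20.5% ± 4.63 in Leo1_10. In 0.1% serum its share was 0.487% ± 0.243 in WT_01 and 3.10% ± 2.56 in Leo1_01, or 1.62% without library 12. The shares are a description with no test, and the libraries of the genotypes did not overlap in either serum.

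**Figure D2:**
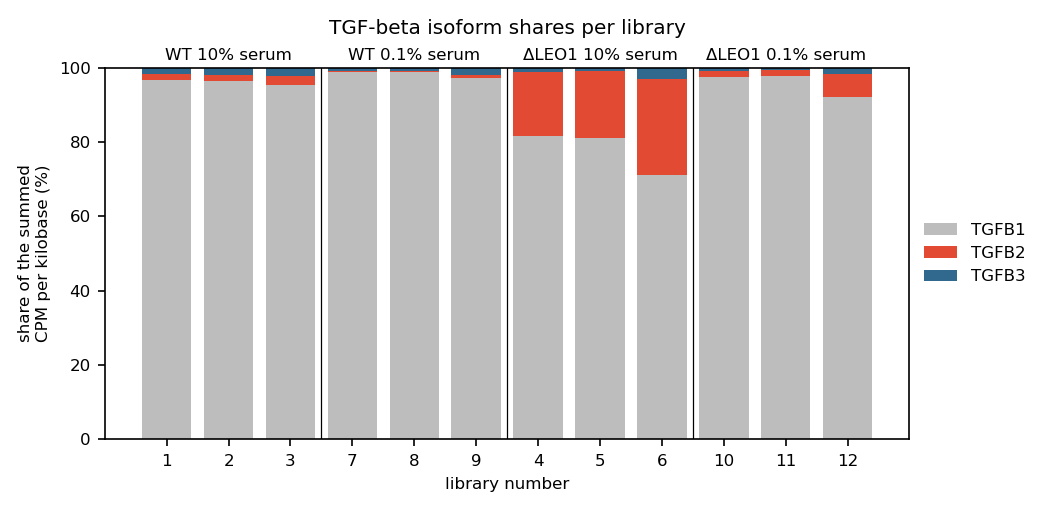
Share of TGFB1, TGFB2 and TGFB3 in their summed CPM per kilobase of principal transcript (vertical axis, percent), 1 stacked bar for each of the 12 libraries (horizontal axis, library number), by group. TGFB2 takes 17.5% to 25.8% in the ΔLEO1 libraries in 10% serum and 1.51% to 2.34% in the wild-type ones.

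The genes of the activin subunits differed in the comparison that moved them most, genotype for INHBB and serum for INHBA. INHBB (ENSG00000163083, chr2:120346143-120351808, plus strand) encodes the beta B subunit of activins and inhibins. It had ERCC-scaled counts of 3571, 2947 and 1309 in WT_10 and 823, 1097 and 730.2 in WT_01. The ΔLEO1 libraries held 40.8, 48.9 and 14.2 in 10% serum and 51.5, 28.5 and 89.9 in 0.1% serum, far below each wild-type library. Its log2 fold change in ΔLEO1 cells was −6.25 ± 0.54 (edgeR adjusted p = 1.0e-20) in 10% serum and −4.0 ± 0.50 (edgeR adjusted p = 6.5e-11) in 0.1% serum, and every fit that left out 1 library called both. On the relative scale these values were −6.52 and −4.22. The ΔLEO1 values rest on 6 to 19 raw counts a library in 10% serum and 31 to 35 in 0.1% serum. The 18 other tested genes within 5 Mb had a median relative log2 fold change of 0.16 and 0.21 in the same comparisons. In wild-type cells INHBB was also called lower in low serum on both scales, at −1.56 on the ERCC scale. There the call was lost without library 1, 2, 7 or 9 (−1.28, −1.47, −1.51 and −1.44).

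INHBA is the gene of the beta A subunit that forms activin A. Its ERCC-scaled counts were 1386, 1081 and 1229.6 in WT_10 and 76.5, 117 and 54.5 in WT_01. In ΔLEO1 cells they were 1170.3, 733 and 1358 in 10% serum and 111, 73.7 and 432 in 0.1% serum. Both genotypes held less INHBA in 0.1% serum without overlap, at −3.91 ± 0.50 (edgeR adjusted p = 4.4e-10) and −2.42 ± 0.50 (edgeR adjusted p = 1.6e-04), and the fall was called on the relative scale as well (−3.04 and −1.59). Library 12 was the highest of Leo1_01, and without libraries 3, 6, 9 and 12 the fall in ΔLEO1 cells was −3.37, against −3.57 without library 12 alone. FST encodes follistatin, which binds activins. It had 1120.1, 960.0 and 863 in WT_10, 449, 370.3 and 323 in Leo1_10, 1198, 1759 and 699 in WT_01 and 283, 186 and 265 in Leo1_01. The ΔLEO1 libraries lay below all wild-type libraries of the same serum, with −2.32 ± 0.49 (edgeR adjusted p = 2.0e-04) in 0.1% serum and −1.37 ± 0.49 (edgeR adjusted p = 0.069) in 10% serum, where it did not pass on the ERCC scale and did on the relative one (−1.75).

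Of the BMP ligands, BMP4 (ENSG00000125378, chr14:53949736-53958761, minus strand) had 2444, 1931 and 1081 ERCC-scaled counts in WT_10 and 8804, 6257 and 7365 in Leo1_10. In 0.1% serum it had 1618, 2177 and 1350.2 in WT_01 and 1596, 815 and 4672 in Leo1_01. It was higher in ΔLEO1 cells in 10% serum, without overlap, at 2.04 ± 0.46 (edgeR adjusted p = 3.7e-04), while the genotypes overlapped in 0.1% serum (0.46). Its log2 fold change in low serum was −1.66 ± 0.45 (edgeR adjusted p = 0.0054) in ΔLEO1 cells and −0.084 in wild-type cells. On the relative scale these serum responses had opposite signs, −0.79 and 0.92, both called. Library 12 was the highest of Leo1_01, and without it the fall in ΔLEO1 cells was −2.63 and the difference between the genotypes in 0.1% serum −0.51, which was not called either. Without library 10 the fall was −1.46 and not called. BMP2 was low, with a mean under 5 CPM in each group. Its ERCC-scaled counts were 31.1, 72.4 and 56.7 in WT_10, 119.6, 143 and 161 in WT_01, 73.4, 87.4 and 57.0 in Leo1_10 and 18.2, 16.6 and 41.1 in Leo1_01. It was called higher in 0.1% serum in wild-type cells (1.39 ± 0.55, edgeR adjusted p = 0.039) and lower in ΔLEO1 cells (−1.58 ± 0.58, edgeR adjusted p = 0.026), and the groups did not overlap in either. Leaving out 1 library kept these calls in 6 and 8 of 12 fits. The call in wild-type cells was lost when any 1 of libraries 1, 2, 5, 7, 8 and 9 was left out (1.13, 1.65, 1.38, 1.49, 1.38 and 1.28), and that in ΔLEO1 cells when any 1 of libraries 4, 5, 10 and 11 was (−1.58, −1.42, −1.40 and −1.33). BMP6 had at most 20 counts in a library.

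The BMP antagonist with the most reads was GREM1, which encodes gremlin 1 (ENSG00000166923, chr15:32717974-32745107, plus strand). Wild-type cells held 82561, 67722 and 103166 ERCC-scaled counts in 10% serum and 7420.3, 8619 and 4839 in 0.1% serum. ΔLEO1 cells held 41606, 33099 and 36765 and 5408, 3059 and 9411. The fall in low serum was larger than the spread between libraries in both genotypes, at −3.60 ± 0.44 (edgeR adjusted p = 3.5e-11) and −2.64 ± 0.44 (edgeR adjusted p = 1.7e-06), and stayed called on the relative scale at −2.78 and −1.60. In 10% serum the ΔLEO1 libraries were all below the wild-type ones, but the difference did not pass on the ERCC scale (−1.19 ± 0.44, edgeR adjusted p = 0.08) and passed only relative to the other genes (−1.65). NOG, the gene of noggin, fell in wild-type cells in low serum (−2.42 ± 0.53, edgeR adjusted p = 2.8e-04) and was at −0.38 ± 0.52 (edgeR adjusted p = 0.51) in ΔLEO1 cells. CHRD, the gene of chordin, had at most 2 counts in a library.

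**Figure D3:**
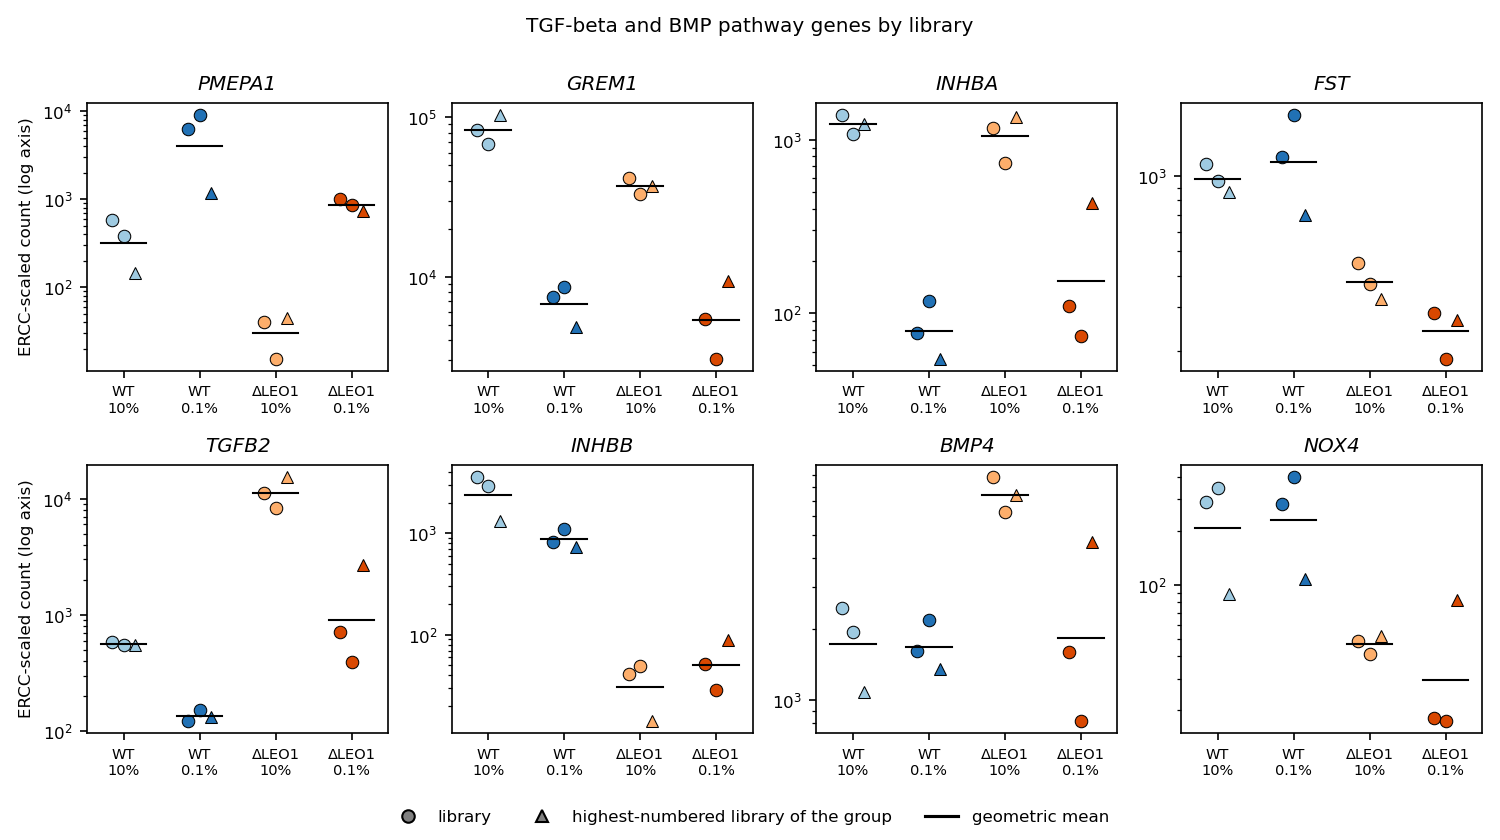
ERCC-scaled counts (vertical log axis) of 8 members in the 4 groups, 1 point a library, with the highest-numbered library of each group as a triangle and the geometric mean as a line. PMEPA1 rises and GREM1 and INHBA fall in 0.1% serum in both genotypes, TGFB2 is higher and INHBB and NOX4 are lower in ΔLEO1 cells, and the triangle of ΔLEO1 cells in 0.1% serum is the highest of its group for GREM1, INHBA, TGFB2, INHBB, BMP4 and NOX4.

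Of the receptor genes, ACVRL1 and BAMBI were the members called on the ERCC scale. TGFBR1, TGFBR2, TGFBR3, ACVRL1 and ENG, which encode the TGF-beta receptors and co-receptors, did not pass the test for low serum on the ERCC scale, with log2 fold changes from −0.86 to 0.61 in wild-type and −0.73 to 0.80 in ΔLEO1 cells. Relative to the other genes 4 of the 5 were called higher in each genotype (backgrounds 16% in wild-type and 16.5% in ΔLEO1 cells). TGFBR3, the gene of betaglycan, which presents TGFB2 to the signalling receptors, had the largest of these relative increases, at 1.68 ± 0.22 (edgeR adjusted p = 1.2e-11) and 1.87 ± 0.23 (edgeR adjusted p = 1.1e-13). Its ERCC-scaled counts were 3765, 3062 and 1059 in WT_10 and 4056, 4559 and 3377 in WT_01. ACVRL1, which encodes the type I receptor ALK1, was called between the genotypes on the ERCC scale in both sera. It had 325, 314 and 191 in WT_10, 114, 61.7 and 66.5 in Leo1_10, 142, 228 and 89.0 in WT_01 and 45.4, 31.3 and 72.0 in Leo1_01, so that each ΔLEO1 library was below the wild-type ones of the same serum. The log2 fold changes were −1.79 ± 0.54 (edgeR adjusted p = 0.016) and −1.64 ± 0.53 (edgeR adjusted p = 0.037), at group means of 0.627 to 3.06 CPM. These calls held in 8 and 4 of the 12 fits that left out 1 library, with ranges of −2.09 to −1.61 and −1.99 to −1.24, and the quasi-likelihood test did not call the second (edgeR adjusted p = 0.058). The weakest values came without library 5 (−1.61) and without library 8 (−1.24). Relative to the other genes TGFBR2 (−1.10 and −0.83), TGFBR3 (−1.12 and −0.94) and ENG (−0.63 and −0.67) were lower in ΔLEO1 cells too. ACVRL1 and ENG are best known from endothelium, whose summed markers were also lower in the ΔLEO1 libraries. Those sums were 0.698 to 6.12 CPM over all libraries, while group means of ENG alone were 93.4 to 218 CPM. The part of this in the values of ACVRL1 and ENG was not tested.

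ACVR1, BMPR1A and BMPR2, receptors for BMPs, stayed between −0.77 and 0.22 on the ERCC scale in all 4 comparisons and were not called there. Relative to the other genes BMPR1A (−0.29) and BMPR2 (−0.53) were called lower in ΔLEO1 cells in 10% serum, and neither was in 0.1% serum. On that scale ACVR1 was called higher in low serum in both genotypes and BMPR1A in ΔLEO1 cells. BAMBI encodes a decoy receptor without a kinase. It had 799, 668 and 397 ERCC-scaled counts in WT_10, 2092, 1512 and 2046 in Leo1_10, 323, 425 and 209 in WT_01 and 660.3, 377 and 1380.0 in Leo1_01. The genotypes did not overlap in 10% serum (1.60 ± 0.48, edgeR adjusted p = 0.017) and overlapped in 0.1% serum on this scale (1.34 ± 0.49, edgeR adjusted p = 0.083). On the relative scale BAMBI was higher in ΔLEO1 cells in both sera, at 1.30 and 1.06. The ERCC-scale call in 10% serum was lost without library 2, 3, 4 or 6 (1.66, 1.36, 1.53 and 1.55). In ΔLEO1 cells BAMBI was called lower in low serum on the ERCC scale, at −1.23, and not relative to the other genes. That call was lost when any 1 of libraries 4 to 7, 10 and 11 was left out. It was −0.89 without library 11 and −1.86 without library 12.

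Among the SMAD genes, SMAD2 and SMAD9 were called lower in low serum on the ERCC scale, SMAD2 at −1.15 and −1.21 and SMAD9 at −1.31 and −1.42 in wild-type and ΔLEO1 cells, and neither was called relative to the other genes. Of the 12 fits without 1 library, 7 and 8 kept the calls of SMAD2 and 8 and 9 those of SMAD9. The weakest values of SMAD2 were −0.94 without library 1 and −0.89 without library 11, and those of SMAD9 −0.99 and −1.23 without the same libraries. SMAD4, the partner of all receptor-regulated SMADs, was not called in any of these comparisons on either scale. SMAD1, which carries the BMP signal, had 2797, 2263 and 1722 ERCC-scaled counts in WT_10 and 1162, 851 and 610.0 in Leo1_10. In 0.1% serum it had 1245, 1370.2 and 824 in WT_01 and 510.4, 285 and 822 in Leo1_01. The genotypes were apart in 10% serum, while libraries 9 and 12 nearly met in 0.1% serum. The difference missed the threshold on the ERCC scale at −1.37 ± 0.48 (edgeR adjusted p = 0.052) and −1.09 ± 0.48 (edgeR adjusted p = 0.21), and passed it relative to the other genes at −1.76 ± 0.15 (edgeR adjusted p = 1.0e-29) and −1.32 ± 0.15 (edgeR adjusted p = 3.1e-17). The 24 other tested genes within 5 Mb of SMAD1 on chromosome 4 had median relative log2 fold changes of −0.49 and −0.52, so that its neighbours were lower as well and SMAD1 lower still. SMAD3, on the TGF-beta side, was higher in ΔLEO1 cells relative to the other genes (0.53 and 0.65) and not called on the ERCC scale.

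PMEPA1 (ENSG00000124225, chr20:57648392-57711536, minus strand) showed the largest rise of all members in low serum. It encodes a membrane protein that keeps SMAD2 and SMAD3 from the receptor and is itself induced by TGF-beta. Wild-type cells held 577, 386 and 147 ERCC-scaled counts in 10% serum and 6248, 9089.9 and 1192 in 0.1% serum. ΔLEO1 cells held 40.8, 15.4 and 45.1 in 10% serum and 1006, 858 and 732 in 0.1% serum. Libraries 3 and 9 were the lowest of their wild-type groups, yet no group overlapped with its counterpart in the other serum or the other genotype. The rise was 3.90 ± 0.47 (edgeR adjusted p = 2.7e-11) in wild-type and 4.68 ± 0.53 (edgeR adjusted p = 2.4e-13) in ΔLEO1 cells. ΔLEO1 cells held less PMEPA1, at −3.45 ± 0.53 (edgeR adjusted p = 2.3e-08) in 10% serum and −2.67 ± 0.47 (edgeR adjusted p = 3.2e-06) in 0.1% serum, and all 4 calls held in each of the 12 fits without 1 library and on the relative scale. In Leo1_10 the values rest on 6 to 19 raw counts. Of its exonic bases 6.1% lie opposite NKILA on the other strand, and the strand setting of the counting is not given in the sources used here.

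Of the other inhibitors within the cell, SMAD7, SKI, SKIL and TGIF1 were called higher in low serum in both genotypes relative to the other genes, at 1.20, 1.14, 1.77 and 0.97 in wild-type and 1.57, 1.66, 1.74 and 1.24 in ΔLEO1 cells. On the ERCC scale they did not pass the test, with values of 0.0042 to 0.78. Library 12 was the highest of Leo1_01, where SMAD7 had 2667, 1755 and 11589.9 ERCC-scaled counts and TGIF1 3050.0, 1815 and 9375, and without libraries 3, 6, 9 and 12 their ERCC-scaled changes in ΔLEO1 cells were −0.36 and −0.71, neither called. SKIL, the gene of the corepressor SnoN, had 42.5, 36.5 and 34 CPM in WT_10 and 144, 134 and 129 CPM in WT_01. In ΔLEO1 cells it had 60.5, 63.6 and 70.6 CPM and 203, 216 and 263 CPM, so that the sera did not overlap in CPM in either genotype. SMAD6 and the ubiquitin ligase genes SMURF1 and SMURF2 were not called on the ERCC scale. Of the exonic bases of SMURF1 11.7% lie opposite TRRAP.

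The ID genes encode inhibitors of basic helix-loop-helix factors and are direct targets of BMP signalling. All 4 were called lower in low serum in both genotypes on the ERCC scale (background 36.1% in wild-type and 47.2% in ΔLEO1 cells). Relative to the other genes ID3 was called lower in wild-type cells and ID3 and ID4 in ΔLEO1 cells (backgrounds 16.6% and 12.9%). ID3 had 7675, 6095 and 7416 ERCC-scaled counts in WT_10 and 656, 986 and 1089 in WT_01. In ΔLEO1 cells it had 21404, 15885 and 27008 in 10% serum and 2293, 1433 and 7018 in 0.1% serum. Its fall was −2.96 ± 0.45 (edgeR adjusted p = 8.7e-08) in wild-type and −2.58 ± 0.45 (edgeR adjusted p = 4.9e-06) in ΔLEO1 cells, without overlap in either. ΔLEO1 cells held more ID3 in 10% serum (1.60 ± 0.45, edgeR adjusted p = 0.0078) and in 0.1% serum (1.97 ± 0.45, edgeR adjusted p = 5.9e-04), again without overlap, and all 4 differences were also called relative to the other genes. On the ERCC scale the call in 10% serum was lost without library 2 or 6 (1.51 and 1.42) and that in 0.1% serum without library 12 (1.03), without which the fall in ΔLEO1 cells was −3.52. ID4, at group means of 1.38 to 8.44 CPM, was higher in ΔLEO1 cells by 2.2 ± 0.51 (edgeR adjusted p = 6.4e-04) and 1.94 ± 0.51 (edgeR adjusted p = 0.0049), the second not called without library 9 or 12 (1.57 and 1.27). Its fall in low serum was −1.67 ± 0.52 (edgeR adjusted p = 0.011) in wild-type and −1.93 ± 0.50 (edgeR adjusted p = 0.0035) in ΔLEO1 cells, and −0.78 and −0.96 relative to the other genes. The first was not called without library 1, 7 or 9 (−1.41, −1.71 and −1.30) and the second without library 10 (−1.72).

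ID1 turned on single libraries. Its ERCC-scaled counts were 6627, 5264 and 4379.6 in WT_10 and 682, 805 and 3098 in WT_01. In ΔLEO1 cells they were 11622, 8617 and 10873 in 10% serum and 784, 402 and 8776 in 0.1% serum. Libraries 9 and 12 were high in 0.1% serum, and library 12 lay within the range of ΔLEO1 cells in 10% serum. The fitted fall was −1.83 ± 0.45 (edgeR adjusted p = 0.0014) in wild-type and −1.64 ± 0.45 (edgeR adjusted p = 0.0056) in ΔLEO1 cells, and −3.00 and −4.09 without libraries 3, 6, 9 and 12. The call was lost without library 7 in wild-type cells (−1.47) and without library 10 or 11 in ΔLEO1 cells (−1.19 and −1.12), and DESeq2 called neither (adjusted p = 0.11 and 0.13). On the relative scale neither was called (−0.66 and −1.11). The difference between the genotypes in 0.1% serum was 1.12 ± 0.45 (edgeR adjusted p = 0.15) with all libraries, and −1.37 (called lower, edgeR adjusted p = 0.013) without library 12. ID2 followed the same pattern in ΔLEO1 cells, with 806, 505 and 5307 in Leo1_01, and its fall there was −1.48 with and −3.03 without the 4 highest-numbered libraries. Its falls relative to the other genes were −0.34 and −0.82, not called, and DESeq2 called neither on the ERCC scale (adjusted p = 0.11 and 0.079). Its call was lost without library 1, 2, 7 or 9 in wild-type cells (−1.19, −1.35, −1.16 and −1.43) and without library 4, 10 or 11 in ΔLEO1 cells (−1.46, −1.09 and −1.01).

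**Figure D4:**
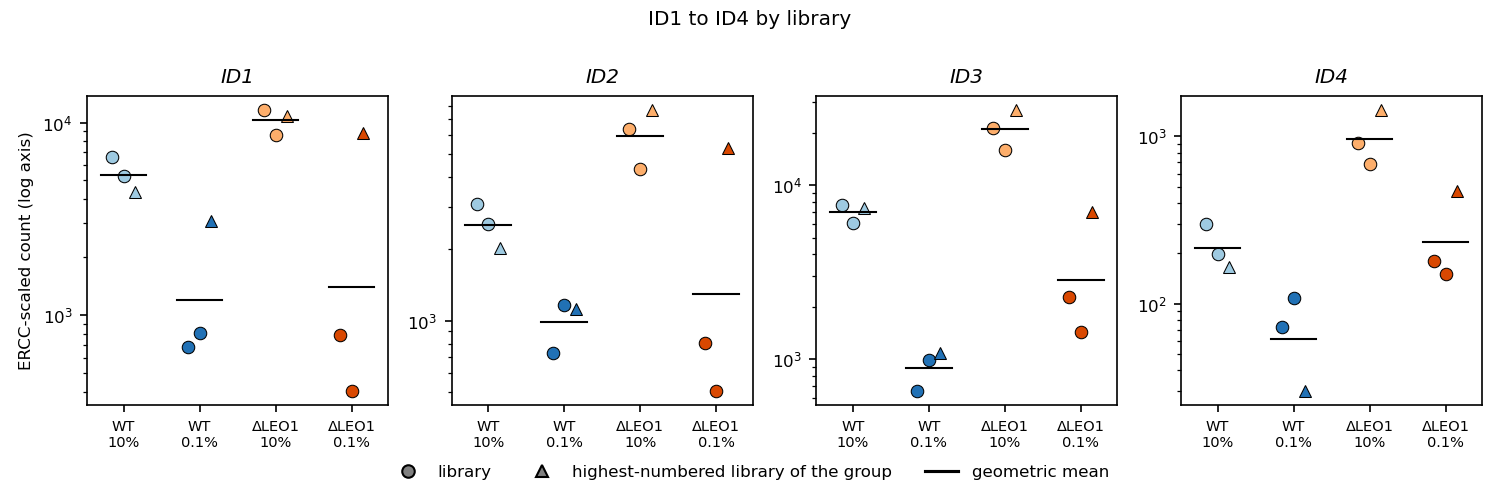
ERCC-scaled counts (vertical log axis) of ID1, ID2, ID3 and ID4 in the 4 groups, 1 point a library, with the highest-numbered library of each group as a triangle and the geometric mean as a line. In 0.1% serum the triangles of ID1 lie at 3098 in wild-type and 8776 in ΔLEO1 cells, above the other libraries of their groups, which lie at 402 to 805.

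TGFBI and NOX4 stand for the TGF-beta targets among the members. TGFBI, a matrix protein gene, had 13639, 10868 and 765 ERCC-scaled counts in WT_10 and 19322, 26309 and 5364 in WT_01. In ΔLEO1 cells it had 14178, 10109 and 2537 and 19646, 12434 and 18289.5. Library 3 was about an order of magnitude below libraries 1 and 2, and library 6 was the lowest of Leo1_10. The rise in low serum missed the threshold on the ERCC scale, at 1.01 ± 0.45 (edgeR adjusted p = 0.059) and 0.91 ± 0.45 (edgeR adjusted p = 0.072), and passed it relative to the other genes at 2.07 ± 0.69 (edgeR adjusted p = 0.016) and 2.26 ± 0.69 (edgeR adjusted p = 0.0094). NOX4, the gene of an oxidase that takes part in myofibroblast activation, had 290.4, 349 and 88.6 in WT_10 and 48.9, 41.1 and 52.2 in Leo1_10. In 0.1% serum it had 284, 400.0 and 108 in WT_01 and 18.2, 17.5 and 82.2 in Leo1_01. It was lower in ΔLEO1 cells in both sera without overlap, at −2.34 ± 0.55 (edgeR adjusted p = 7.9e-04) and −2.82 ± 0.54 (edgeR adjusted p = 2.7e-05) (−3.86 without library 12), and did not pass for serum on the ERCC scale (0.12 and −0.35). Relative to the other genes NOX4 was called higher in low serum in wild-type cells and not in ΔLEO1 cells. Its ΔLEO1 values rest on 12 to 22 raw counts a library in 10% serum and 12 to 32 in 0.1% serum.

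Whether the serum response differed between the genotypes was tested with the interaction term. On the ERCC scale the likelihood ratio test of edgeR called 0 members (background 0.136% higher and 0.0831% lower), with 5 at an unadjusted p under 0.05. The quasi-likelihood test called 0 and had the same number at the unadjusted p, and DESeq2 called 1, BMP2. Relative to the other genes, 2 members were called higher, INHBB and NOG, and 2 lower, BMP2 and BMP4 (backgrounds 3.06% and 1.02%). INHBB had a serum response of −0.53 in wild-type and 1.77 in ΔLEO1 cells on this scale, an interaction of 2.30 ± 0.40 (edgeR adjusted p = 9.0e-07). That of NOG was −1.52 and 0.96, an interaction of 2.48 ± 0.53 (edgeR adjusted p = 3.5e-04). BMP2 (2.30 and −0.44) and BMP4 (0.92 and −0.79) went the other way, with interactions of −2.75 ± 0.59 (edgeR adjusted p = 2.6e-04) and −1.71 ± 0.29 (edgeR adjusted p = 1.5e-06). NOG, BMP2 and the ΔLEO1 values of INHBB rest on a mean under 5 CPM.

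**Figure D5:**
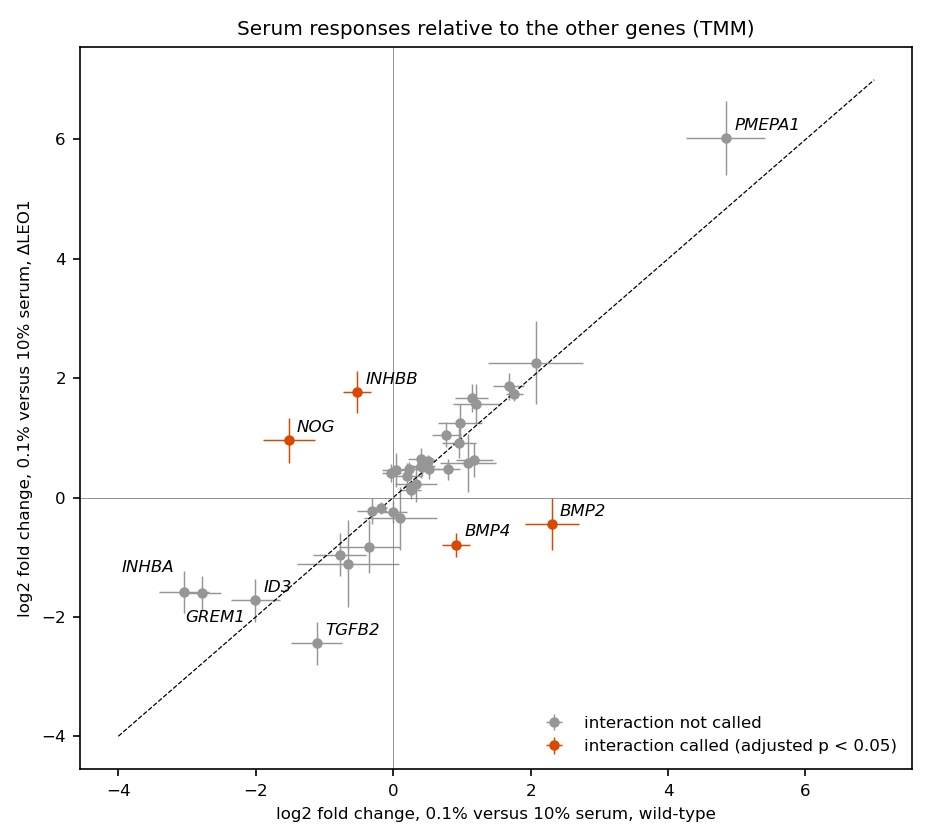
Log2 fold change of 0.1% over 10% serum in wild-type cells (horizontal axis) and ΔLEO1 cells (vertical axis) relative to the other genes, 1 point for each of the 39 tested members, with bars of 1 SE and a dashed line where both are equal. INHBB and NOG lie above the line and BMP2 and BMP4 below it, in orange as members whose interaction passed the test, and PMEPA1 lies at 4.84 and 6.02.

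A wider list of 133 other genes of the pathway, of which 92 were tested, was counted in the same way on the ERCC scale. In low serum 2 were higher and 36 lower in wild-type cells (backgrounds 0.944% and 36.1%), and 3 higher and 39 lower in ΔLEO1 cells (backgrounds 0.975% and 47.2%). In ΔLEO1 against wild-type cells 7 were higher and 9 lower in 10% serum (backgrounds 4.2% and 4.64%), and 7 higher and 6 lower in 0.1% serum (backgrounds 3.85% and 3.59%). The counts higher and lower relative to the other genes were 20 and 22, 28 and 20, 15 and 31, and 17 and 26 in the same order (backgrounds 16% and 16.6%, 16.5% and 12.9%, 17.7% and 21.8%, and 15.4% and 17.6%). Among the genes of latency and activation, LTBP1, which tethers latent TGF-beta to the matrix, was lower in ΔLEO1 cells at −1.70 (edgeR adjusted p = 0.004) and −1.72 (edgeR adjusted p = 0.0039). These calls were lost without library 1, 2 or 6 (−1.37, −1.53 and −1.49) and without library 8 or 10 (−1.43 and −1.56). LTBP4 rose in low serum by 1.5 (edgeR adjusted p = 0.0081) in wild-type and 1.03 (edgeR adjusted p = 0.047) in ΔLEO1 cells. The second call was lost when any 1 of libraries 1, 2, 4 to 8, 10 and 12 was left out, with 0.80 without library 12 and 0.60 (edgeR adjusted p = 0.1) without libraries 3, 6, 9 and 12. THBS1, the gene of the activator thrombospondin 1, fell in wild-type cells, at −2.51 (edgeR adjusted p = 2.8e-06). All were called on the relative scale in the same direction.

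Of the other ligands, GDF15 was lower in ΔLEO1 cells in both sera, at −1.81 (edgeR adjusted p = 0.0086) and −2.46 (edgeR adjusted p = 1.4e-04). AMH was higher, at 1.83 (edgeR adjusted p = 0.0071) and 1.79 (edgeR adjusted p = 0.0096). The first call of GDF15 was lost without library 2 or 6 (−1.62 and −1.41), the first of AMH without library 3 (1.46) and the second without library 7 or 12 (1.65 and 1.05). Among the modulators FMOD, the gene of fibromodulin, a proteoglycan that binds TGF-beta, had 56, 44 and 29 raw counts in WT_10 and 91, 61 and 94 in WT_01, against 0, 3 and 7 in Leo1_10 and 1, 1 and 0 in Leo1_01, and was called lower in both sera. FSTL5 had 26, 22 and 2 raw counts in WT_10, 816, 661 and 569 in WT_01, 6, 9 and 0 in Leo1_10 and 78, 90 and 126 in Leo1_01, and was called higher in low serum in both genotypes. ASPN, the gene of the related proteoglycan asporin, was the 1 gene of the list with a called interaction on the ERCC scale, at 4.24 (edgeR adjusted p = 2.8e-05) and 2.93 without library 12. The relative scale called 4 interactions higher, those of THBS1, ACVR2A, ASPN and CDKN1A, and 2 lower, those of COL4A1 and TIMP3 (backgrounds 3.06% and 1.02%).

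The 28 further target genes held the contractile and matrix genes of the myofibroblast. On the ERCC scale 5 were called higher and 3 lower in ΔLEO1 cells in 10% serum (backgrounds 4.2% and 4.64%). In 0.1% serum 6 were higher and 1 lower (backgrounds 3.85% and 3.59%). Those lower included CDKN1A at −1.99 (edgeR adjusted p = 4.0e-04) and ELN at −1.73 (edgeR adjusted p = 0.02) in 10% serum. The ELN call was lost without library 1, 2, 5 or 6 (−1.34, −1.49, −1.85 and −1.43). TAGLN, CNN1, COL1A1 and COL1A2 were not called between the genotypes on the ERCC scale. ACTA2, which encodes smooth muscle alpha-actin, had 47896, 36682 and 57013 ERCC-scaled counts in WT_10 and 161538, 105162 and 286240.0 in Leo1_10. In 0.1% serum it had 5593, 7315 and 5288 in WT_01 and 28606, 16799.6 and 64474 in Leo1_01. It fell in low serum, at −2.96 (edgeR adjusted p = 3.4e-08) in wild-type and −2.33 (edgeR adjusted p = 2.6e-05) in ΔLEO1 cells, and was higher in ΔLEO1 cells by 1.97 (edgeR adjusted p = 3.5e-04) and 2.59 (edgeR adjusted p = 1.1e-06). The genotypes did not overlap in either serum, and libraries 3, 6 and 12 were the highest of their groups. Without library 12 the fall in ΔLEO1 cells was −3.02 and the difference in 0.1% serum 1.90, both called. POSTN, the gene of the matrix protein periostin, was higher in ΔLEO1 cells by 5.29 (edgeR adjusted p = 3.9e-21) in 10% serum and 3.11 (edgeR adjusted p = 3.8e-09) in 0.1% serum. In 10% serum it had 14499.5, 7996 and 398.6 ERCC-scaled counts in WT_10 and 402099, 300468 and 190379 in Leo1_10. The difference there was 6.15 without library 1. Without libraries 3, 6, 9 and 12 the differences were 4.97 in 10% serum and 2.36 in 0.1% serum. MSX2, a BMP target, was lower, at −3.20 (edgeR adjusted p = 2.8e-06) and −3.37 (edgeR adjusted p = 3.0e-07). HEY1 of the same list was higher, at 1.93 (edgeR adjusted p = 0.0041) and 1.65 (edgeR adjusted p = 0.025). Its second call was lost without library 7, 8, 9 or 12 (1.59, 1.79, 1.58 and 0.72). ATOH8 was called higher in both sera relative to the other genes and not on the ERCC scale. TAGLN, CNN1, COL1A1, COL1A2 and COL4A1 fell in low serum in both genotypes on both scales, COL1A1 at −1.95 (edgeR adjusted p = 3.6e-04) and −1.82 (edgeR adjusted p = 0.0013). In ΔLEO1 cells the ERCC-scale calls of TAGLN, CNN1 and COL1A2 were lost without library 10 (−1.43, −1.52 and −1.60), and in wild-type cells that of COL1A2 without library 1 or 7 (−1.24 and −1.37).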

How the data were processed

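RNA was measured in 12 libraries of BJ-5ta fibroblasts with the Illumina stranded mRNA kit and an ERCC spike-in. The authors demultiplexed reads with bcl2fastq 2.20.0.422, aligned them to GRCh38 and the ERCC sequences with STAR (2.7.10a in the submitters' processing notes) and deposited raw read counts per gene and per ERCC transcript from featureCounts 1.5.1. Its strand and multi-mapping settings are not given in the sources used here. Reads shared by overlapping genes can therefore be lost or go to either gene.

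Genes above 1 CPM in 3 or more libraries were fitted with edgeR 4.0.16 (R 4.3.3, likelihood ratio test, Benjamini-Hochberg over 13236 genes, threshold 0.05) in 1 fit of 4 groups, with the ERCC total times its TMM factor as library size. The design gave 4 pairwise comparisons and their interaction. The same fit with TMM on the genes gives changes relative to the other genes. ERCC-scaled counts are per 1000000 effective ERCC counts. DESeq2 1.42.0, the quasi-likelihood test, other filters and sets of libraries were the alternatives. The scripts were tested on simulated data with 200 changed genes. The ERCC shares had 95% Wilson intervals at most 0.0120 percentage points wide, which cover counting error only.

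Symbols matched 41 of 41 members, 133 of 133 other genes and 30 of 30 markers, and coordinates are from GENCODE 29. Values in every library are given for members called on the ERCC scale whose mean reaches 10 CPM in 1 of both groups and which are among the 6 largest log2 fold changes of a comparison, with further members to complete a role. Other pathway genes with values were picked from those called on both scales in the same direction, and not all of these are given. The members and lists were chosen with earlier results of these data known.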

Additional observations from a re-analysis of the deposited data

Results flagged for a closer look

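The response to low serum differed between the genotypes in 4 members when genes were set against each other, by the interaction term of edgeR. The log2 difference, the response of ΔLEO1 cells minus that of wild-type cells, was 2.30 for INHBB, 2.48 for NOG, −2.75 for BMP2 and −1.71 for BMP4. On the ERCC scale the same differences were 2.25, 2.04, −2.96 and −1.58 and were not called (edgeR adjusted p = 0.44, 0.77, 0.081 and 1).

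BMP2 was singled out on the ERCC scale as well, because each of its 3 wild-type libraries in 0.1% serum lay above those in 10% serum and each of its 3 ΔLEO1 libraries in 0.1% serum lay below those in 10% serum. The difference of −2.96 missed the threshold of the interaction test there, and all its group means were under 5 CPM.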

How the results depend on the processing

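No paired analysis was possible because the replicate numbers run from 1 to 12 and the groups share none. Counts of members called are given as higher and lower, in the order of the comparisons above. The counts were 1 and 10 for low serum in wild-type cells, 1 and 12 for low serum in ΔLEO1 cells, 5 and 4 for ΔLEO1 against wild-type in 10% serum, 3 and 5 for ΔLEO1 against wild-type in 0.1% serum and 0 and 0 for the interaction with the quasi-likelihood test of edgeR. They were 2 and 10 for low serum in wild-type cells, 1 and 10 for low serum in ΔLEO1 cells, 5 and 6 for ΔLEO1 against wild-type in 10% serum, 3 and 6 for ΔLEO1 against wild-type in 0.1% serum and 0 and 1 for the interaction with DESeq2 on ERCC size factors. TMM on the genes, and DESeq2 size factors on the genes likewise, gave 17 and 6 for low serum in wild-type cells, 19 and 6 for low serum in ΔLEO1 cells, 8 and 14 for ΔLEO1 against wild-type in 10% serum, 8 and 10 for ΔLEO1 against wild-type in 0.1% serum and 2 and 2 for the interaction. Without a filter they were 1 and 9 for low serum in wild-type cells, 1 and 9 for low serum in ΔLEO1 cells, 5 and 4 for ΔLEO1 against wild-type in 10% serum, 3 and 5 for ΔLEO1 against wild-type in 0.1% serum and 0 and 0 for the interaction. With only the groups compared in the fit they were 3 and 13 for low serum in wild-type cells, 1 and 8 for low serum in ΔLEO1 cells, 7 and 7 for ΔLEO1 against wild-type in 10% serum and 3 and 5 for ΔLEO1 against wild-type in 0.1% serum. A term for the highest-numbered libraries gave 3 and 11 for low serum in wild-type cells, 2 and 12 for low serum in ΔLEO1 cells, 5 and 4 for ΔLEO1 against wild-type in 10% serum, 3 and 5 for ΔLEO1 against wild-type in 0.1% serum and 0 and 0 for the interaction. A threshold of 0.01 gave 1 and 6 for low serum in wild-type cells, 1 and 7 for low serum in ΔLEO1 cells, 4 and 3 for ΔLEO1 against wild-type in 10% serum, 3 and 5 for ΔLEO1 against wild-type in 0.1% serum and 0 and 0 for the interaction. Adding up both lower-numbered libraries within a group, which leaves 2 libraries a group, gave 1 and 5 for low serum in wild-type cells, 1 and 3 for low serum in ΔLEO1 cells, 3 and 2 for ΔLEO1 against wild-type in 10% serum, 3 and 3 for ΔLEO1 against wild-type in 0.1% serum and 0 and 0 for the interaction. Leaving out the 4 highest-numbered libraries gave 3 and 16 for low serum in wild-type cells, 1 and 30 for low serum in ΔLEO1 cells, 5 and 8 for ΔLEO1 against wild-type in 10% serum, 2 and 10 for ΔLEO1 against wild-type in 0.1% serum and 0 and 3 for the interaction, and with TMM on the genes 23 and 10 for low serum in wild-type cells, 24 and 8 for low serum in ΔLEO1 cells, 13 and 21 for ΔLEO1 against wild-type in 10% serum, 13 and 15 for ΔLEO1 against wild-type in 0.1% serum and 12 and 7 for the interaction. filterByExpr gave 2 and 11 for low serum in wild-type cells, 1 and 12 for low serum in ΔLEO1 cells, 5 and 5 for ΔLEO1 against wild-type in 10% serum, 3 and 6 for ΔLEO1 against wild-type in 0.1% serum and 0 and 0 for the interaction, and ERCC totals without a TMM factor 2 and 11 for low serum in wild-type cells, 1 and 13 for low serum in ΔLEO1 cells, 5 and 4 for ΔLEO1 against wild-type in 10% serum, 3 and 6 for ΔLEO1 against wild-type in 0.1% serum and 0 and 0 for the interaction. Leaving out 1 library at a time gave 1 to 4 higher and 5 to 14 lower for low serum in wild-type cells, 1 to 2 higher and 4 to 26 lower for low serum in ΔLEO1 cells, 3 to 7 higher and 3 to 7 lower for ΔLEO1 against wild-type in 10% serum, 1 to 9 higher and 5 to 8 lower for ΔLEO1 against wild-type in 0.1% serum and 0 to 1 higher and 0 to 4 lower for the interaction. The largest counts lower came without library 12 of Leo1_01. Over all 13236 tested genes, leaving out the 4 highest-numbered libraries called 198 higher and 9506 lower for low serum in wild-type cells. In the same order the other comparisons gave 103 and 12241, 966 and 958, 378 and 2195, and 22 and 110. With TMM on the genes these counts were 3681 and 4082, 3842 and 3749, 4101 and 4306, 4124 and 3935, and 2290 and 1304. In the main fit 4776 of all tested genes were called lower for low serum in wild-type cells and 6253 in ΔLEO1 cells. Calls over all genes thus moved with the libraries as well. Shares over all genes are given above for the main fit and for TMM, and not for the other settings. For those settings a move in the counts of members cannot be told apart from a move of all genes.

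Of the 45 calls of a member on the ERCC scale in the 4 pairwise comparisons, 23 held in each of the 12 fits without 1 library. The same share was not counted over all tested genes, so it does not set the members apart from other genes. Setting the genes against each other in place of the spike-in turned the sign of log2 fold changes that were not called on the ERCC scale and were called on the relative one. Low serum in ΔLEO1 cells gave TGFB1 0.92, NOG 0.96, TGFBR1 0.51, TGFBR2 1.05, ENG 0.48, ACVR1 0.62, BMPR1A 0.48, SMAD1 0.41, SMAD3 0.52, SMAD5 0.47, SMURF2 0.65. Low serum in wild-type cells gave BMP4 0.92, TGFBR1 0.42, TGFBR2 0.78, ENG 0.52, ACVR1 0.51, SMAD5 0.79. ΔLEO1 against wild-type in 10% serum gave BMPR1A −0.29. With DESeq2 size factors on the genes the same values turned and were equal to the second decimal, except BMPR1A at −0.28 and SMAD5 at 0.80. Leaving out the 4 highest-numbered libraries as well turned more. Low serum in ΔLEO1 cells gave TGFB1 1.29, TGFB3 0.67, FST 0.92, NOG 0.95, TGFBR1 0.57, TGFBR2 0.94, ENG 0.65, ACVR1 0.64, BMPR1A 0.59, BMPR2 0.53, SMAD1 0.37, SMAD3 0.66, SMAD4 0.26, SMAD5 0.54, SMAD9 0.067, SMAD6 0.41, SMURF2 0.79. ΔLEO1 against wild-type in 10% serum gave TGFB3 −0.69, ACVR1 −0.19, BMPR1A −0.39, SMAD6 −0.48, SMAD7 −0.49, SKI −0.31, TGFBI −0.28. Low serum in wild-type cells gave BMP4 0.82, TGFBR1 0.53, TGFBR2 0.75, ENG 0.55, ACVR1 0.45, BMPR1A 0.25, BMPR2 0.43, SMAD3 0.56, SMAD4 0.35, SMAD5 0.88, SMURF1 0.37, SMURF2 0.61. ΔLEO1 against wild-type in 0.1% serum gave BMP4 −0.24, SMAD5 −0.25. The interaction gave SMAD9 0.42, SMAD6 0.68, ID1 −0.44. Of these, TGFB3 and SMAD9 for low serum in ΔLEO1 cells had been called lower on the ERCC scale, and TGFB3 was now called higher and SMAD9 not called. Without library 12 of Leo1_01 the difference of ID1 in 0.1% serum turned to −1.37 and its interaction to −2.30, and without library 9 of WT_01 they were 2.16 and 1.22. Without library 12 the share of TGFB2 in Leo1_01 was 1.62% in place of 3.10%. Between the 2 scales the median of all tested genes moved from −0.97 to 0.0044 for low serum in wild-type cells. In ΔLEO1 cells it moved from −1.05 to 0.012. The cause of the changes of the members was not tested. The spread between libraries limits what can be called, since 2-fold changes were seldom recovered in simulated counts.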

Other observations

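Set side by side per kilobase of principal transcript, TGFB1 and GREM1 were at 61.8 and 63.5 CPM per kilobase in WT_10, and at 128 and 9.84 in WT_01. In Leo1_10 they were at 70.1 and 20.4, and in Leo1_01 at 137 and 7.04. BMP4 was at 9.27 in WT_10 and 31.2 in Leo1_10, and INHBB at 7.83 and 0.0845. These are means of 3 libraries and were not tested between genes.

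CHRD was listed at 0 in all 6 ΔLEO1 libraries, and its raw counts were 2, 0 and 1 in WT_10 and 2, 1 and 1 in WT_01. BMP6 had 3, 5 and 2 raw counts in WT_10, 20, 20 and 4 in WT_01, 1, 1 and 3 in Leo1_10 and 4, 10 and 9 in Leo1_01. Neither was tested.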
